A study of Mus musculus with 6 samples.

Results

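The calcium/calmodulin-dependent protein kinases (CaM kinases) were followed through 10 genes: Camk2a, Camk2b, Camk2d and Camk2g, which encode the 4 isoforms of CaM kinase II, Camk1, Camk1d and Camk1g, Camk4, the pseudokinase gene Camkv and the upstream kinase gene Camkk2. These 10 of the 19938 genes measured were chosen by the intensity difference between progenitor and neuron arrays, as a family whose isoforms went opposite ways. For the 10 genes that difference is therefore given as a description, with no test. Each gene had 1 probe set that named it alone, and all 10 were kept without a filter on dim values.

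The RNA came from mouse brain cells of strain C57BL/6J, sorted by fluorescence into GFP+ cells, labelled cortical neural progenitors, and RFP+ cells, labelled as their differentiated neuronal progeny. Each group had 3 samples with 1 Affymetrix whole-transcript array apiece, and no treatment other than the reporters was named. For the RFP+ cells the labels name the brain and no region. The age of the animals, the promoters behind the reporters and whether samples came from separate animals are not stated in the sources used here, so the p-values cover no more than the variation among these samples, which may be technical. Array medians lay between 210.31 and 221.1. All 9 radial glia markers were higher in GFP+ arrays and all 9 measured neuron markers in RFP+ arrays, among them Pax6 and Tbr1 (log2 differences of 2.33 and -2.15), Sox2 and Snap25 (1.88 and -2.36), and Nes and Tubb3 (2.39 and -0.93). As a set, neuron markers were not absent from the GFP+ arrays, where their summed intensity was 17800 to 19683 against 43403 to 48258 in RFP+. Levels of different genes are not comparable, and the brightest genes weigh most in such a sum. In GFP+ Tubb3 was the brightest (mean of 7010.8), while Nefl and Nefm were dim (37.8 and 124.8).

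CaM kinases carry calcium signals from the calcium-binding protein calmodulin to other proteins. When calcium rises, calcium-loaded calmodulin binds the kinase and lifts its autoinhibitory segment from the catalytic site. CaM kinase I and IV are further activated by CaM kinase kinase, while CaM kinase II assembles into large holoenzymes that phosphorylate themselves and can stay active after calcium falls. In mature forebrain the alpha and beta isoforms of CaM kinase II are abundant at synapses, and CaM kinase IV acts in the nucleus on transcription factors such as CREB.

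Of the 10 kinase genes, 7 were higher in RFP+ neurons on every array and 2, Camk2a and Camk2d, were higher in GFP+ progenitors on every array. Camk1 overlapped between the groups. Over all genes, 24.1% were higher in every RFP+ array than in any GFP+ array and 19.9% the other way round. The fit over all genes had a threshold of adjusted p under 0.05 (limma, Benjamini-Hochberg). Of all genes, 16.2% passed it as higher in RFP+ and 13.7% as higher in GFP+. No call by this threshold is given for the 10 kinases. A difference of at least 4-fold was seen for 3 kinase genes higher in RFP+ and 1 higher in GFP+, against 0.993% and 2.02% of all genes. Nothing follows from these shares, since the contrast chose the family. The median log2 difference of the 10 genes was -1.0, and that of all genes was -0.08. Every difference below is the GFP+ mean less the RFP+ mean of log2(intensity + 16), given with its standard error (SE) from the fit. Folds come from these differences and are smaller than the ratio of intensities where a gene is dim. Precision is limited by having 3 arrays a group. The near-background level used below is the intensity under which 95% of olfactory receptor genes lay on an array, since most of these genes are silent in brain.

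**Figure D1:**
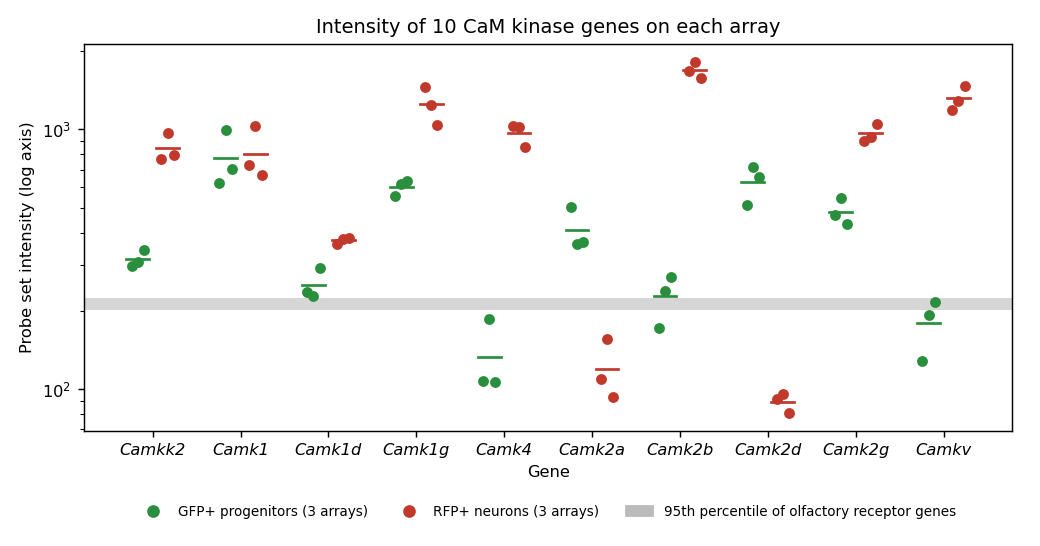
Intensity of each kinase gene's probe set on each array (log axis), with GFP+ progenitors in green and RFP+ neurons in red. Points are arrays, short lines are group means, and the grey band spans the 95th percentiles of olfactory receptor genes over the 6 arrays (201.5 to 224.1). Camk2a and Camk2d lie above the band in GFP+ and below it in RFP+, Camk4 shows the opposite, and levels of different genes are not comparable because each has its own probes.

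Start regions are shown for members that were higher in neurons, for Camk1, which overlapped, and for Camk2d, which was higher in progenitors. RefSeq promoter windows (GRCm38.p6, from 250 bases before an annotated start to 50 after) matched 7 of the 10 genes: Camk2b, Camk2d, Camk1, Camk1d, Camk1g, Camkv and Camkk2. Camk2a, Camk2g and Camk4 were not matched, and the stretch of Camk1d, which was higher in neurons, is not printed. For Camkv, Camkk2, Camk1g and Camk1 the bases that lie before the whole annotated gene are printed. The windows of Camk2b and Camk2d have no such stretch of 30 bases or more. For these genes the 30 bases just before the window's annotated start are printed, which lie inside the annotated gene span. All are read 5′ to 3′ on the gene's strand. Capitals mark the E-box forms CAGCTG and CAGATG, the latter reading CATCTG on the other strand. An E-box is a site bound by basic helix-loop-helix factors. The printed stretches of Camk2b, Camk2d, Camkv and Camkk2 hold neither form. Other E-box forms were not searched or marked.
Camk2b (chr11:6065749-6065778, minus strand): cgacagcggcgcccgcgcctctgcgcgcgt
Camk2d (chr3:126596921-126596950, plus strand): gggggcttcgctgggcggggagaggaggga
Camkv (chr9:107935670-107935850, plus strand): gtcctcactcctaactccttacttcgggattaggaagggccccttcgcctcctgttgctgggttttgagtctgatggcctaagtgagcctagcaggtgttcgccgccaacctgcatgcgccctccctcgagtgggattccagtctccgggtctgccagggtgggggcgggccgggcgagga
Camkk2 (chr5:122779523-122779660, minus strand): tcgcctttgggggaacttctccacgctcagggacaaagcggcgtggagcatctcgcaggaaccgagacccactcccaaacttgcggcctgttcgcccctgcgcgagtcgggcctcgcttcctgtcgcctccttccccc
Camk1g (chr1:193370356-193370532, minus strand): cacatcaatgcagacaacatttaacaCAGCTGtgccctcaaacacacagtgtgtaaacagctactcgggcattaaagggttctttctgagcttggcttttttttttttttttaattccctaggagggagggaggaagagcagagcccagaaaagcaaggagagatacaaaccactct
Camk1 (chr6:113343923-113344172, minus strand): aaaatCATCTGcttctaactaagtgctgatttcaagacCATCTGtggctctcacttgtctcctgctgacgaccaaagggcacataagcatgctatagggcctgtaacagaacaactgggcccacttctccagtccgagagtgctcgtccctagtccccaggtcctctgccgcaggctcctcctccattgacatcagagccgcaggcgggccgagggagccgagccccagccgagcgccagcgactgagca

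Camk2b, higher in neurons, and Camk2d, higher in progenitors, both had GC-rich windows (77.3% and 70.3% G or C) with many CpG dinucleotides, at 1.28 and 0.85 of the number that their base content predicts. Over all 32851 windows the medians were 52.7% and 0.38. Camkk2 (73.3%, ratio 1.08), Camkv (68.3%, 0.71) and the first window of Camk1d (71.3%, 0.78) were also GC-rich, Camk1 was intermediate (60.0%, 0.57), and Camk1g stood lowest, at 44.7% and 0.07. The motifs named here were searched on both strands over the full windows, and no 2 matches overlapped. The E-box CAGCTG was found in Camk1g and, after the start, in Camkv (16.3% of all windows hold it), and the E-box CAGATG in Camk1, at 2 places, and in the second window of Camk1d (17.2%). The CCAAT box CCAAT was found in Camkk2, Camk1g and the second window of Camk1d (37.4%). The cAMP response element TGACGTCA (1.79%), the left part TTCAGCACC of the RE1 site of the repressor REST (0.371%) and the TATA box TATAAA (13.6%) had no match in any of these windows. A match is a description of letters, not of a bound site.

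Camkk2, the kinase that activates CaM kinases I and IV by phosphorylating their activation loop, was higher in neurons. Its intensity (probe set 10533529) was 297.8, 307.6 and 344.6 in GFP+ replicates 1 to 3 and 769.1, 963.6 and 799.1 in RFP+ replicates 1 to 3. The groups did not overlap, and all 6 arrays were above the near-background level. The difference was -1.37 ± 0.20 (log2, SE), or 2.58-fold, from means of 316.7 ± 24.7 and 844.0 ± 104.7 (SD, n = 3). Its annotated span overlaps that of P2rx4, an ATP-gated channel gene, which was also higher in RFP+ but dim, at means of 102.8 and 170.2.

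Among the 3 CaM kinase I genes, Camk1g and Camk1d were higher in neurons and Camk1 overlapped. Camk1g, the gamma isoform, which is anchored to membranes by a lipid group, had intensities of 555.7, 615.9 and 633.5 in GFP+ and 1457.6, 1239.9 and 1042.1 in RFP+ (probe set 10361250). All RFP+ arrays were above all GFP+ arrays, with the RFP+ arrays the more scattered, and the difference was -1.02 ± 0.21 (2.03-fold). Camk1d, the delta isoform, was also higher in RFP+, from 236.1, 227.4 and 293.4 to 363.0, 378.4 and 381.3 (probe set 10479852), a difference of -0.55 ± 0.20 (1.46-fold). Camk1, the alpha isoform, was bright in both groups. It read 621.9, 991.5 and 703.1 in GFP+ and 730.5, 1024.9 and 664.3 in RFP+ (probe set 10546891), with the second array highest in each group. Its difference was -0.06 ± 0.23, and its sign was positive without GFP+ replicate 1 (0.07) or without RFP+ replicate 2 (0.12).

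Camk4, the nuclear CaM kinase IV, was bright in neurons alone. In GFP+ it read 107.4, 185.7 and 107.0, below the near-background level on all 3 arrays, and in RFP+ 1029.0, 1017.9 and 854.4 (probe set 10454632). Only the neuron arrays thus stood clear of the near-background level, and the difference was -2.75 ± 0.22 (6.75-fold). GFP+ replicate 2, the highest of the progenitor arrays for Camk4, also had the highest summed neuron markers of that group (19683, with 19017 and 17800 on replicates 1 and 3). Among the other kinases higher in neurons, Camk2g was also highest on replicate 2 of that group. Camk2b, Camkv, Camkk2, Camk1d and Camk1g were instead highest on replicate 3, where the sum was lowest. The part of neurons in these levels was not tested.

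CaM kinase II held the opposite-going isoforms. Camk2b, the beta isoform, which also binds and bundles actin, was 171.8, 239.4 and 271.2 in GFP+ and 1671.9, 1821.5 and 1568.5 in RFP+ (probe set 10384064). It was high on every neuron array, and on the progenitor arrays it lay under the near-background level on 1 and above it on 2. The difference of -2.83 ± 0.21 (7.09-fold) was the largest of the 10 in either direction. Camk2g, the gamma isoform, was above that level on all 6 arrays, at 465.9, 541.8 and 431.9 in GFP+ and 904.7, 936.2 and 1050.1 in RFP+ (probe set 10417972). It differed by -0.99 ± 0.20 (1.98-fold), with tight arrays and no overlap.

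Camk2d, the delta isoform and the main form of heart muscle, went the other way. It read 513.4, 713.2 and 655.1 in GFP+ and 91.6, 95.6 and 81.0 in RFP+ (probe set 10495896). It lay below the near-background level on all 3 neuron arrays. The difference was 2.60 ± 0.21 (6.06-fold), and 2.79 with an offset of 1 in place of 16. Camk2a, the alpha isoform best known from mature excitatory neurons, was also higher in progenitors. Its values were 501.8, 361.9 and 369.1 in GFP+ against 109.8, 156.7 and 93.4 in RFP+ (probe set 10456021). As with Camk2d, no neuron array reached that level while all 3 progenitor arrays exceeded it, and the difference was 1.66 ± 0.22 (3.17-fold). Leaving out any 1 array kept it between 1.52 and 1.85. The annotated span of Camk2a also overlaps 2 microRNA genes and a long noncoding RNA gene, and that of Camk2d 1 such RNA gene. Which of them the probes could read was not analysed here.

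Markers of other cell types were higher in the same GFP+ arrays as Camk2a and Camk2d. All 8 endothelial markers were higher there, with a summed intensity of 1723, 4040 and 6089 in GFP+ replicates 1 to 3 and 674 to 895 in RFP+. Of 8 pericyte and mural cell markers 6 were higher in GFP+ (sums of 5305 to 6926 against 1083 to 1208), as were 5 of 7 measured oligodendrocyte lineage markers (1688 to 2486 against 606 to 832). None of these markers was listed at 0 on any array. GFP+ replicate 1, with the lowest endothelial sum, was lowest for Camk2d and highest for Camk2a. Without that array the differences were 2.73 for Camk2d and 1.52 for Camk2a. The other lists ordered the arrays differently. The pericyte and mural cell sum was lowest on GFP+ replicate 2 (5305), where Camk2d was highest and Camk2a lowest. The oligodendrocyte lineage sum was lowest on GFP+ replicate 3 (1688), where both genes were intermediate. The part of these cells in either gene was not tested, and in sorted bulk RNA fewer cells of a type and less RNA per cell cannot be told apart. None of 9 microglia markers passed (limma, 0 also at an unadjusted p under 0.05), with sums of 1140 to 1854 in GFP+ and 1506 to 1884 in RFP+. Nor did any of the 3 measured red blood cell markers (0 unadjusted), with sums of 357 to 1419 and 386 to 639. Of 9 inhibitory neuron markers 2 were higher in GFP+ (sums of 11956 to 15088 against 5845 to 14940). That is 22.2%, not far from the 13.7% of all genes higher in GFP+. The shares higher in GFP+ were 100% of endothelial, 75% of pericyte and mural cell and 71.4% of oligodendrocyte lineage markers.

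Camkv encodes a kinase-like protein of neuronal vesicles and synapses that lacks catalytic activity. Its own probe set (10588755) read 128.9, 193.4 and 216.9 in GFP+ and 1182.5, 1284.8 and 1472.9 in RFP+. It was high on all neuron arrays, and 1 of the 3 progenitor arrays exceeded the near-background level. The difference was -2.79 ± 0.22 (6.90-fold). Another 32 probe sets name Camkv together with the ribosomal protein gene Rpl21 and in part Cep170, and were not used.

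The genes with the most similar pattern were sought for the member with the largest difference each way, by the distance between gene-centred log2 values over the 6 arrays. Nearest to Camk2d were Kif4, a kinesin that acts on mitotic chromosomes (distance 0.173), Parva, an adaptor of integrin adhesions (0.205), and Foxf2, a transcription factor known from brain pericytes (0.234). Their log2 differences were 2.56, 2.51 and 2.58. Nearest to Camk2b were the zinc finger gene Hivep2 (0.286), the potassium channel gene Kcnq3 (0.320) and Cdh13, a cadherin anchored to the membrane by a lipid (0.326), with log2 differences of -2.71, -2.77 and -2.77. These genes were picked for likeness over the same 6 arrays, so the match is a description.

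Outside the 10 kinases, 131 genes were listed, most of which supply, buffer or read calcium and calmodulin signals. A further 8 of them are for AMP-activated protein kinase, which Camkk2 also activates, and its other upstream kinase. Of the 131, 122 were measured, and these were tested in the fit over all genes. The lists were chosen with earlier results of these data known, which limits what their shares show. Higher in RFP+ were 53, or 43.4%, and higher in GFP+ were 16, or 13.1% (16.2% and 13.7% of all genes). The median log2 difference of the 122 genes was -0.41.

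**Figure D2:**
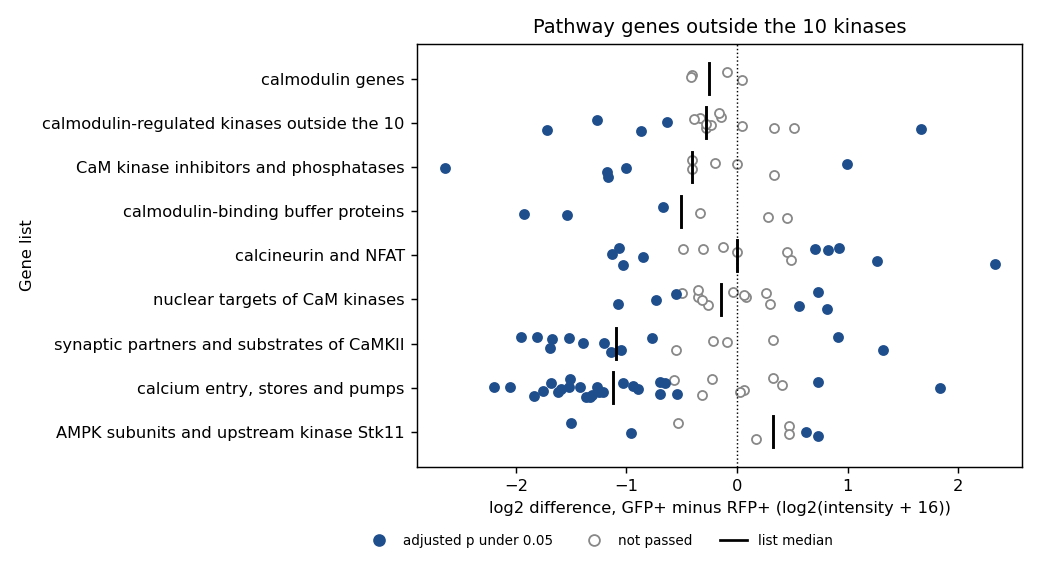
Log2 difference (GFP+ minus RFP+) of each measured gene in 9 pathway lists, filled where the limma adjusted p is under 0.05, with the list median as a black line. Calcium entry, store and pump genes (median -1.12) and synaptic partners of CaM kinase II (-1.09) lie mostly left of 0, calmodulin genes have no filled point, and calcineurin and NFAT genes fall on both sides.

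Genes that let calcium into the cytosol or clear it from there were mostly higher in neurons. Of 32 measured, 23 were higher in RFP+ and 2 in GFP+ (median -1.12). The shares were 71.9% and 6.25%, against 16.2% and 13.7% of all genes. The ryanodine receptor gene Ryr3, a calcium release channel, was higher in RFP+ (93.5 ± 41.3 in GFP+ and 462.8 ± 61.0 in RFP+, SD, n = 3, 4.60-fold, limma adjusted p = 1.23e-06). The sodium-calcium exchanger genes Slc8a1 (4.14-fold, adjusted p = 7.34e-07) and Slc8a3 (3.58-fold, 6.83e-07) were also higher there. Ryr3 and Slc8a3 were under the near-background level on all 3 GFP+ arrays, so their folds rest on the offset (log2 differences of -2.20 and -1.84, and -2.40 and -1.99 with an offset of 1). Higher in progenitors were Itpr2, an inositol trisphosphate receptor (3.56-fold, adjusted p = 1.08e-06, or 1.83 on the log2 scale and 2.14 with an offset of 1), which exceeded the near-background level on 1 GFP+ array and no RFP+ array, and the endoplasmic reticulum pump gene Atp2a3 (1.66-fold, adjusted p = 0.00848), whose mean was under the near-background level in both groups. Atp2a3 lost its call without RFP+ replicate 2 (adjusted p = 0.0543).

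Calm2 and Calm3, which encode calmodulin itself, were bright in both groups, and no calmodulin gene of the 4 measured passed limma's test, with 0 also at an unadjusted p under 0.05. Calm2 read 9650.5 ± 1897.4 in GFP+ and 12693.4 ± 683.3 in RFP+ (log2 difference -0.41 ± 0.21, adjusted p = 0.143), and passed only with an intensity trend and robust moderation (adjusted p = 0.0221). Calm3 read 3382.7 ± 835.6 and 3239.0 ± 320.5 (0.04 ± 0.22). The calmodulin-like genes Calml3 and Calml4 had log2 differences of -0.42 and -0.09. Of all genes, 16.2% passed as higher in RFP+ and 13.7% as higher in GFP+. Of 6 genes for proteins that hold calmodulin at low calcium or otherwise bind it, 3 (50%) were higher in RFP+ and none in GFP+ (median -0.50). They were the growth cone gene Gap43 (3.81-fold, adjusted p = 6.71e-07), Pcp4 (2.91-fold, adjusted p = 1.07e-04) and Pcp4l1 (1.59-fold, adjusted p = 0.0178), the last dim in both groups and not called without GFP+ replicate 2 (adjusted p = 0.0519), nor without the second (0.0587) or the third (0.0792) RFP+ array. Nrgn, the neurogranin gene of mature forebrain neurons, read 352.9 ± 84.0 in GFP+ and 249.4 ± 17.6 in RFP+ (adjusted p = 0.120), and passed without GFP+ replicate 2 (0.0441).

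Both genes for inhibitors of CaM kinase II were higher in neurons. Camk2n1 and Camk2n2, small proteins that block active CaM kinase II, were 2.25-fold and 2.27-fold higher in RFP+ neurons (log2 differences of -1.17 ± 0.21 and -1.18 ± 0.25, limma adjusted p = 2.50e-04 and 9.78e-04). In their list of 10 inhibitors and phosphatases, 4 were higher in RFP+ and 1 in GFP+ (median -0.41). These are 40% and 10%, against 16.2% and 13.7% of all genes. Ppp1r1b, which encodes the protein phosphatase inhibitor DARPP-32, was 6.24-fold higher in RFP+ (adjusted p = 2.74e-08) and under the near-background level on all 3 GFP+ arrays, and Ppp1r1a, which encodes another inhibitor of that phosphatase, was 1.99-fold higher in GFP+ (adjusted p = 0.00248). The fourth gene higher in RFP+ was Ppm1e, a phosphatase of CaM kinases (1.99-fold). The catalytic genes Ppp1ca, Ppp1cb, Ppp1cc and Ppp2ca did not pass, with log2 differences of -0.41 to 0.00. Ppp1cb and Ppp2ca passed with an intensity trend and robust moderation (adjusted p of 0.0406 and 0.0279).

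**Figure D3:**
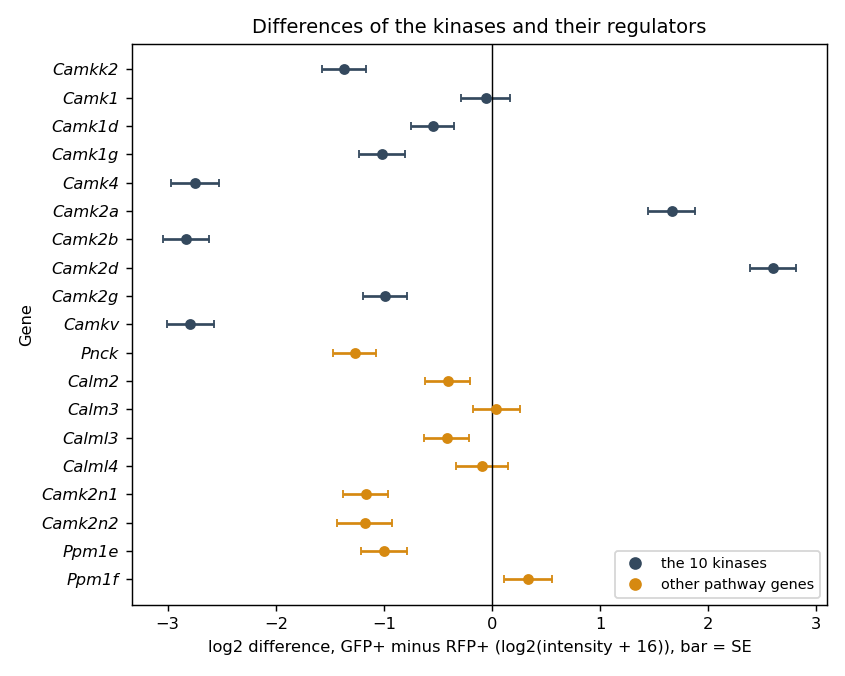
Log2 difference (GFP+ minus RFP+) with its SE for the 10 kinases (dark) and for Pnck, the calmodulin genes, the 2 CaM kinase II inhibitor genes and the CaM kinase phosphatase genes Ppm1e and Ppm1f (orange). Camk2a and Camk2d lie right of 0 at 1.66 and 2.60, Camk1 and Calm3 sit at 0 within their SE, and both inhibitor genes lie near -1.2.

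Of 15 measured kinase genes related to the 10, 4 were higher in RFP+ and 1 in GFP+ (median -0.28). That is 26.7% and 6.67%, against 16.2% and 13.7% of all genes. Pnck, the beta isoform of CaM kinase I, rose from 269.7 ± 5.2 in GFP+ to 673.2 ± 57.7 in RFP+ (2.41-fold, adjusted p = 4.29e-05), which sets it beside Camk1g and Camk1d in direction. Dclk1, a doublecortin-like kinase of migrating neurons (3.30-fold, adjusted p = 1.06e-06), and the synaptic scaffold kinase Cask (1.83-fold, adjusted p = 0.00223) were also higher in RFP+. Dapk3 was the fourth (1.55-fold, adjusted p = 0.0226), a call that was lost when GFP+ replicate 3 was left out (adjusted p = 0.0643), as well as RFP+ replicate 1 (0.0856) or 3 (0.0766). Mylk, the myosin light chain kinase of smooth muscle, was 3.15-fold higher in GFP+ (adjusted p = 2.53e-05). It was under the near-background level on all 3 RFP+ arrays, and its log2 difference was 1.66, or 1.87 with an offset of 1. In the same GFP+ arrays 6 of 8 pericyte and mural cell markers were higher. The others, Acta2 and Tagln, did not pass (log2 differences of -0.30 and -0.21). The part of mural cells in the level of Mylk was not tested. Camkk1 was not analysed here.

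Calcineurin, the calmodulin-activated phosphatase, and its NFAT targets went opposite ways. The catalytic subunit genes Ppp3cc (2.20-fold, limma adjusted p = 3.38e-04), Ppp3ca (2.10-fold, 3.13e-04) and Ppp3cb (1.80-fold, 0.00458) and the regulatory subunit gene Ppp3r1 (2.04-fold, 6.56e-04) were all higher in RFP+ neurons. In GFP+ progenitors the transcription factor genes Nfatc4 (5.02-fold, adjusted p = 3.55e-08), Nfatc2 (2.40-fold, 1.88e-04), Nfatc1 (1.77-fold, 0.00757) and Nfatc3 (1.62-fold, 0.0200) were higher, with the calcineurin regulator gene Rcan3 (1.90-fold, 0.00128). The call of Nfatc3 ended without GFP+ replicate 3 (adjusted p = 0.0913) or RFP+ replicate 2 (0.0881), and the mean of Nfatc1 was under the near-background level in both groups. The other 6 of the 15 did not pass, and the list median was 0.00. Higher in RFP+ were 26.7% of the list and higher in GFP+ 33.3%, against 16.2% and 13.7% of all genes. Ppp3cb, Nfatc1, Nfatc3, Ppm1e and Dapk3, and the genes Nrgn, Creb1, Stk11, Ppp1ca, Ppp1cb, Ppp1cc, Ppp2ca and Ppm1f, which did not pass, are named outside the rule for named genes, after their values were seen.

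Synaptic partners and substrates of CaM kinase II were mostly higher in RFP+ neurons, 10 of 16 measured, with 2 higher in GFP+ (median -1.09). That is 62.5% and 12.5%, against 16.2% and 13.7% of all genes. The synaptic vesicle gene Syn1 was 3.85-fold higher (413.9 ± 67.7 and 1659.5 ± 402.6, SD, n = 3, limma adjusted p = 1.15e-06). Grin2b, the NMDA receptor subunit to which the kinase binds, was 3.50-fold higher (adjusted p = 2.31e-06) and the AMPA receptor subunit gene Gria2 3.22-fold (3.09e-05). The actin crosslinker genes Actn1 (2.49-fold, adjusted p = 4.24e-05) and Actn2 (1.87-fold, 0.00178) were higher in GFP+, Actn2 under the near-background level on all 6 arrays. Grin2b exceeded that level on 1 of the 3 GFP+ arrays.

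Of 16 measured nuclear targets of the kinases, 3 were higher in each group and 10 did not pass (median -0.15). That is 18.8% each way, near the 16.2% of all genes higher in RFP+ and 13.7% higher in GFP+. Mef2c, a transcription factor gene of neurons and muscle, was 2.11-fold higher in RFP+ (adjusted p = 3.13e-04), with Crtc1, a coactivator of CREB (1.66-fold, 0.0109), and the histone deacetylase gene Hdac5 (1.46-fold, 0.0453). Another coactivator gene, Crtc3 (1.75-fold, adjusted p = 0.00467), the CREB relative Atf1 (1.66-fold, 0.00758) and Hdac9 (1.47-fold, 0.0447) were higher in GFP+. Creb1 read 2275.5 ± 363.3 in GFP+ and 1891.8 ± 280.9 in RFP+ (adjusted p = 0.361). Without RFP+ replicate 2 only 3 of the 16 passed, and Crtc1 was lost there (adjusted p = 0.0706). Hdac5 and Hdac9 were each lost without any 1 of 5 arrays, all but GFP+ replicate 1 (adjusted p up to 0.162 and 0.136).

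Of 8 genes for AMP-activated protein kinase, which Camkk2 also activates, and its other upstream kinase, 2 were higher in each group (median 0.32). That is 25% each way, against 16.2% of all genes higher in RFP+ and 13.7% higher in GFP+. The catalytic subunits went opposite ways: Prkaa2 was 2.84-fold higher in RFP+ (adjusted p = 1.60e-05), and Prkaa1 1.54-fold higher in GFP+ (0.0210), a call that ended without RFP+ replicate 1 (0.0781) or RFP+ replicate 3 (0.0779). So did the regulatory subunits, with Prkag2 1.94-fold higher in RFP+ (adjusted p = 8.13e-04) and Prkag1 1.65-fold higher in GFP+ (0.0102). Stk11 read 2282.9 ± 523.5 in GFP+ and 1621.6 ± 37.6 in RFP+ (adjusted p = 0.103), and passed with an intensity trend and robust moderation (0.0423).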

How the data were processed

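Probe set intensities were used as deposited by the authors, whose processing notes name the Affymetrix Expression Console. Its version, and the background correction, normalization and summarisation, are not given in the sources used here. Intensities were linear, with 53 to 112 probe sets at 0 per array. Of 35557 probe sets, 21789 carried 1 gene symbol, 1621 several and 12147 none. For each gene the probe set with the highest mean log2 value was kept, leaving 19938 genes, and log2(intensity + 16) was fitted with limma 3.58.1 (lmFit, eBayes, two-sided) in R 4.3.3 and adjusted by Benjamini-Hochberg at 0.05. Python 3.11.15, pandas 2.3.3 and matplotlib 3.10.9 made tables and figures. The code was tested on simulated data. The 95th percentile of 1015 olfactory receptor genes (201.5 to 224.1 per array) marked the near-background level. No genome build was used for the arrays.

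The members, lists and tests were chosen with earlier results of these data known. Pathway genes named are the calmodulin genes, Pnck, Camk2n1, Camk2n2 and, per list, up to 3 passing genes with the largest difference each way, with 13 more named after their values were seen.

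Replicate numbers come from the sample titles. Deviations from the group means correlated over genes at 0.204, 0.288 and 0.361 between arrays of the same number and at -0.267 to 0.00422 otherwise, so the numbers were taken to pair the samples, although deviations within a group sum to 0. The fit without the pairing was kept, with the paired fit as an alternative. The others were an offset of 1, quantile normalization, median centring, no dimmest 30% of genes, averaging probe sets of 1 gene, an intensity trend with robust moderation and leaving out each array.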

Additional observations from a re-analysis of the deposited data

How the results depend on the processing

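With the replicate number as a block 7366 genes passed in place of 5973, and the block changed no call among the 60 pathway and label-check genes named. Of the 48 of them past the threshold, 37 passed under all 13 alternatives, and Actn2, Itpr2 and Nfatc1 under the 12 that kept them, since the filter on dim genes removed them. The other 8 are Pcp4l1, Dapk3, Nfatc3, Hdac5, Hdac9, Crtc1, Atp2a3 and Prkaa1. Hdac5 and Hdac9 were also lost with an offset of 1 and with quantile normalization (adjusted p of 0.0565 to 0.0679), and Hdac9 with median centring (0.0577). With an intensity trend and robust moderation 1 calmodulin gene passed, where 0 did before. Leaving out 1 array left 3 to 6 nuclear target genes past the threshold, the lowest without RFP+ replicate 2, and 4508 to 5559 genes in all; the cause was not tested. Of the 130 log2 differences of the 10 kinases under these alternatives, 1 moved by more than the spread between replicates (Camk2d, 2.79 with an offset of 1). The block, the filter on dim genes, averaging probe sets and the intensity trend with robust moderation could not change these differences. Their share of the 130 was thus fixed in advance. At least 2-fold were 6 to 8 of the 10 without 1 array. Low signal limits Camk2a, Camk2d and Mylk in RFP+ and Camk4, Camkv, Grin2b, Ppp1r1b, Ryr3 and Slc8a3 in GFP+. It limits Itpr2, Actn2, Atp2a3, Nfatc1 and Pcp4l1 in both groups. Camk2b in GFP+ and Nfatc2 in RFP+ exceeded the near-background level on 2 of 3 arrays. The folds of all these genes depend on the offset.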

Other observations

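The spread of Camk1 between arrays in part followed the replicate number. Within arrays of the same number the log2 differences (GFP+ minus RFP+) were -0.23, -0.05 and 0.08, and the SE fell from 0.23 to 0.15 with the number as a block, with values highest on the second array of each group. The sources used here do not say what the numbers mean, and the cause was not tested. For Camk2a the same pairs gave 2.04, 1.13 and 1.82, and for Camk2b -3.17, -2.85 and -2.46. Ogg1, a DNA repair gene whose annotated span overlaps that of Camk1, read 626.0, 734.8 and 534.6 in GFP+ and 482.9, 574.5 and 492.4 in RFP+, also highest on the second array of each group (log2 difference 0.28, limma adjusted p = 0.326).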
